A study of Mus musculus with 12 samples.

Results

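The genes described here are named after subunits of the respiratory chain (complexes I to IV) and of the mitochondrial ATP synthase (complex V). They were chosen by symbol alone, as Ndufa, Ndufb, Ndufc, Ndufs and Ndufv genes with a number, the Sdha to Sdhd genes, Uqcr genes, Cox4 to Cox8 genes and Atp5 genes, with symbols ending in -ps left out, and as the Nd, Co, Cytb and Atp genes of the mitochondrial genome. The rule found 101 of the 55367 genes in the table, 88 of them nuclear and 13 mitochondrial. By symbol, 40 of the nuclear members belong to complex I, 4 to complex II, 8 to complex III, 19 to complex IV and 17 to complex V. Among them, Ndufa11b, Ndufb4c, Ndufs6b and Cox6c2 are annotated as processed pseudogenes. Ndufb4c (3 to 31 counts per library) and Ndufs6b (3 to 14) passed the expression filter and are counted with the tested members of complex I. The mitochondrial members comprise 7 genes of complex I, 1 of complex III, 3 of complex IV and 2 of complex V.

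They were measured by poly(A) RNA sequencing of mouse organoids, which are cultured epithelial structures, of 2 origins in the posterior tongue: circumvallate papilla organoids, abbreviated CVP, and foliate papilla organoids, abbreviated FoP. The comparison asks how these cultures change when Foxe1, a forkhead transcription factor, is knocked out. In the CVP line, the groups were Foxe1 knock-out (clones 2.9 and 2.10, each in duplicate, 4 libraries) and wild type (1 culture in duplicate, 2 libraries). In the FoP line, they were Foxe1 knock-out (clones 2.4 and 2.5, each in duplicate, 4 libraries) and wild type (1 culture in duplicate, 2 libraries). The labels give no means by which Foxe1 was altered, no age, sex or strain, and no clone for wild type, so the knock-out and the derivation of a clone cannot be told apart. With 6 cultures behind 12 libraries, the p-values measure the spread between these libraries, part of which may be technical.

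Complex I passes electrons from NADH and complex II from succinate to ubiquinone, complex III passes them on to cytochrome c and complex IV to oxygen. The protons moved across the inner membrane by complexes I, III and IV drive ATP synthesis by complex V. Most subunits are encoded in the nucleus, while a few core subunits of complexes I, III, IV and V are transcribed from the small circular mitochondrial genome in long precursors that are cut at the transfer RNAs.

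The libraries held 59.3 to 73.6 M counts. Of the members, 92 were expressed enough to test, 81 nuclear and 11 mitochondrial. The Foxe1 transcript did not follow the labels, with 1527 and 1432 counts in clone 2.9, 487 and 547 in clone 2.10 and 1049 and 1144 in CVP wild type, and with 1471 and 1292 counts in clone 2.4, 707 and 660 in clone 2.5 and 1124 and 989 in FoP wild type. Summed over 8 epithelial markers, the level was 12900 to 15294 CPM (counts scaled to library size) in CVP knock-out and 10048 to 10527 CPM in CVP wild type, and 11160 to 14012 CPM in FoP knock-out and 11587 to 11655 CPM in FoP wild type. Of these 8 epithelial markers, 2 rose and 4 fell in the CVP knock-out, and 1 rose and 2 fell in the FoP knock-out. Markers of skeletal muscle, a tissue rich in mitochondria, summed to at most 1.2 CPM in any library, with Myog at 0 in all 12. Immune markers summed to 10.3 to 18.1 CPM in CVP knock-out, 77.8 to 87.3 CPM in CVP wild type, 38.2 to 66.9 CPM in FoP knock-out and 60.2 to 66.8 CPM in FoP wild type, with Ptprc, which marks all white blood cells, at 0 in every library. Fibroblast markers summed to at most 10 CPM with Lum at 0 throughout, endothelial markers to at most 3.64 CPM, and nerve and glia markers to 48.1 to 73.1 CPM. The nerve and glia sums were 56.5 to 73.1 CPM in CVP knock-out and 63.4 to 67.9 CPM in CVP wild type. Yet of the 5 nerve and glia markers tested, 3 rose and 0 fell in the CVP knock-out (median log2 fold change 1.47). In the FoP knock-out 0 rose and 0 fell (median 0.06). The part of these markers in the results was not tested. In bulk RNA, fewer cells of a type and less RNA per cell cannot be told apart.

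The levels of the members spanned several orders of magnitude. Per kilobase of the longest coding transcript, mt-Co1, the catalytic core of complex IV, was highest at a mean of 2032 CPM per kb over the 12 libraries, followed by mt-Cytb, the cytochrome b of complex III, at 682.9 CPM per kb and mt-Nd1, a membrane subunit of complex I, at 664.6 CPM per kb. The highest nuclear member on this scale was Atp5b, the catalytic beta subunit of the ATP synthase, at 368.1 CPM per kb, with Uqcrh, the hinge protein of complex III, next at 347.8 CPM per kb. The order among nuclear members depends on the length used, since per kilobase of merged exons Atp5b ranked 12 among the members and Uqcrh 13, against ranks 5 and 7 per kilobase of transcript.

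The tissue-restricted isoforms of complex IV were close to silent. Cox4i1, the widely expressed form of the largest nuclear-encoded subunit, averaged 306.7 CPM per kb, while its lung isoform Cox4i2 held at most 6 counts in a library. Cox8a averaged 263.1 CPM per kb, while Cox8b, Cox8c and the testis isoform Cox7b2 were listed at 0 counts in all 12 libraries. Cox6a1 averaged 186.1 CPM per kb against 0.111 CPM per kb for the muscle form Cox6a2, and Cox7a2 averaged 102.5 CPM per kb against 0.632 CPM per kb for the muscle form Cox7a1. Cox6b1 averaged 197.4 CPM per kb and its testis isoform Cox6b2 5.53 CPM per kb, so Cox6b2 was the only restricted isoform of complex IV among those named here above 1 CPM per kb.

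Promoter sequences from RefSeq (250 bases before to 50 after the annotated start, GRCm38.p6) matched 68 of the 88 nuclear members by symbol. They are shown because the symbol rule did not use them and some motifs were more frequent in them than in the promoters of all genes. The motif of nuclear respiratory factor 1, read like the others on both strands, lay in 17 of these 68 promoters (25%) and in 5.19% of the promoters of all 27025 genes. These 27025 genes were not limited to those tested here. The ETS motif CCGGAAG was found in 17 (25%) against 9.93% of all genes, and the YY1 motif in 4 (5.88%) against 1.17%. The shares of the SP1 motif GGGGCGGGG (16.2% against 12.9% of all genes), of the hypoxia core ACGTG (25% against 21.8%) and of the E-box CACGTG (8.82% against 8.09%), which contains ACGTG, lay closer to those of all genes. A match of letters is a description and not a binding site. The promoters of Cox5b, which had the largest nuclear rise in the CVP knock-out, and of Ndufa6, whose response differed most among the members called different between the lines, follow with matches to the nuclear respiratory factor 1 and SP1 motifs in capitals. Cox5b lies at chr1:36691237-36691536 on the plus strand and holds none of the 6 motifs in this window. Ndufa6 lies at chr15:82354242-82354541 on the minus strand and holds the nuclear respiratory factor 1 motif 23 bases after its start and an SP1 motif at the end of the window.
Cox5b: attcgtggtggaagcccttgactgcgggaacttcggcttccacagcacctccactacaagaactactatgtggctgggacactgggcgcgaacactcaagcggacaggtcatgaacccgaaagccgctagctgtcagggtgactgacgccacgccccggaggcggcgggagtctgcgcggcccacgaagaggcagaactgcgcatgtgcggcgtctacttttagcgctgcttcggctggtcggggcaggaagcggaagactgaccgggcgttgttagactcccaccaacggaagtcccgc
Ndufa6: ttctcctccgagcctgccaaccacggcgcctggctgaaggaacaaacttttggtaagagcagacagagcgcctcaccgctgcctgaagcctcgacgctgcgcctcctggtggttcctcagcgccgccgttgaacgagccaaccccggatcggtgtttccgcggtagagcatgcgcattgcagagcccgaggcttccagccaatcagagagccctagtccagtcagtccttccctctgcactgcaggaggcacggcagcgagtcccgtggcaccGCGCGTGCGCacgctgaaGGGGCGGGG

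Windows of 40 bases around the first nuclear respiratory factor 1 match, in capitals, are given for 4 other members named below. They come from Atp5g2 (chr15:102671065-102671104, minus strand), Atp5h (chr11:115420036-115420075, minus strand), Atp5c1 (chr2:10080425-10080464, minus strand) and Sdhd (chr9:50603904-50603943, minus strand), written in the direction of the gene.
Atp5g2: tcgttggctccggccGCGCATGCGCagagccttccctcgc
Atp5h: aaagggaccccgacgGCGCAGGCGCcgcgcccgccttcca
Atp5c1: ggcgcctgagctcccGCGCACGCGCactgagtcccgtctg
Sdhd: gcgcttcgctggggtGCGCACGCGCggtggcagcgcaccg

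Calls were also counted for members with and without the nuclear respiratory factor 1 motif. In the CVP knock-out, 1 of the 17 tested members with it rose and 4 fell (median log2 fold change -0.09), against 6 and 18 of the 49 without it (median -0.11). In the FoP knock-out, 0 of the 17 rose and 2 fell (median 0.03), against 8 and 5 of the 49 (median 0.02). The difference between these shares was not tested.

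In CVP knock-out organoids, more nuclear members fell than rose, mostly by small amounts, while more mitochondrial ones rose than fell, each against CVP wild type. Among the 81 nuclear members tested, 30 fell and 8 rose past an adjusted p of 0.05, with a median log2 fold change of -0.11, beside a median of 0.03 over all 17076 genes tested. Of all genes, 46.4% were called in this comparison (23.5% higher, 22.9% lower), so the 46.9% called among nuclear members lay near the background. Their split between directions, with 30 lower and 8 higher, did not follow the near-even split of all genes. Of the 11 mitochondrial members tested, 5 rose and 1 fell, with a median of 0.42 over the 7 that held 1000 counts or more in every library. Complex III had the lowest nuclear median at -0.31, with 5 of 8 members lower and 1 higher. In complex I, 11 of 39 fell and 4 rose (median -0.09), in complex II 1 of 4 fell (median -0.07), in complex IV 5 of 13 fell and 2 rose (median -0.13), and in complex V 8 of 17 fell and 1 rose (median -0.11).

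**Figure D1:**
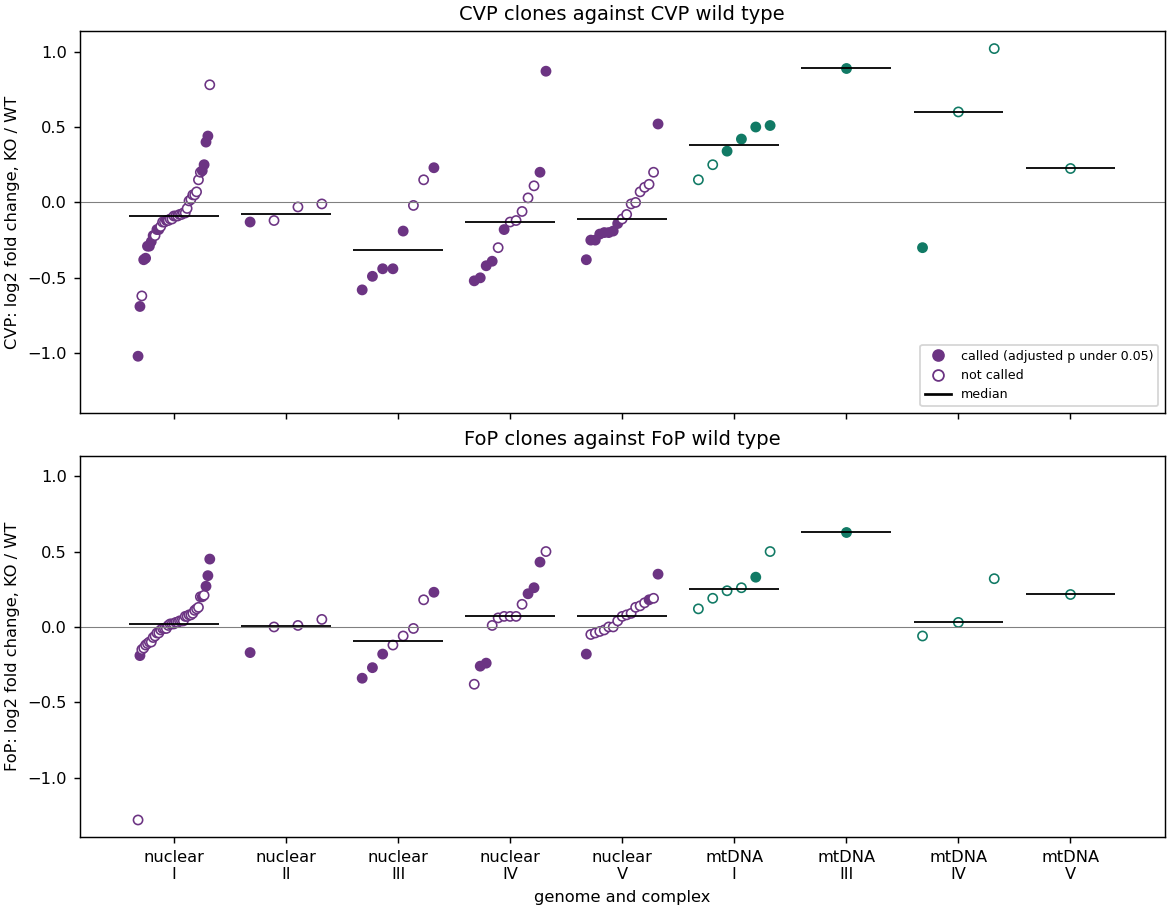
Log2 fold change of every tested member (y axis) by genome and complex (x axis) in the CVP line (top) and the FoP line (bottom), knock-out over wild type. Filled points passed an adjusted p of 0.05 and lines mark medians. In the CVP line the nuclear medians lie below 0 and the mitochondrial ones above it. The mitochondrial medians of complexes IV and V rest on genes with at most 17 counts in a library. In the CVP line mt-Co1, the well measured mitochondrial gene of complex IV, fell (-0.30). In the FoP line the nuclear medians lie between -0.09 and 0.07.

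Among complex I genes, Ndufa4l2 fell most in the CVP line. It encodes a relative of Ndufa4 known as a hypoxia-inducible inhibitor of complex I activity, and Ndufa4 itself, though counted with complex I by its symbol, is known as a subunit of complex IV. Ndufa4l2 stood at 218.7 and 183.5 CPM in clone 2.9 and at 125.2 and 182.2 CPM in clone 2.10, against 387.6 and 332.6 CPM in CVP wild type (log2 fold change -1.02 ± 0.34 SE, adjusted p = 0.0365). All 4 knock-out libraries lay below both wild type libraries, but the call was lost in 12 of 27 alternatives, among them without either wild type library and without either clone. Ndufa4 stood at 89 to 97.9 CPM in the 4 knock-out libraries and at 100.2 and 106.1 CPM in wild type (-0.12 ± 0.07, adjusted p = 0.183).

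Ndufa6, an accessory subunit of the LYR motif family on chromosome 15 (82350140 to 82354322, minus strand), stood at 93.4 and 113.5 CPM in clone 2.9 and at 83.8 and 113.3 CPM in clone 2.10, against 169.6 and 155.4 CPM in CVP wild type. The groups did not overlap (-0.69 ± 0.10, adjusted p = 0.000191), and the fall was called in every alternative run, including duplicates summed per culture (highest adjusted p 0.0132). Ndufb10 (-0.38 ± 0.05) and Ndufb11 (-0.37 ± 0.06), accessory subunits of the membrane arm, were likewise called in all alternatives run. Further called falls were those of Ndufv3 (-0.29 ± 0.07), Ndufa2 (-0.26 ± 0.06), Ndufa7 (-0.18 ± 0.06), Ndufb5 (-0.18 ± 0.06) and Ndufa13 (-0.12 ± 0.05). The call of Ndufa13 was lost in 15 of 27 alternatives, and 30% of its exon bases are shared with Tssk6 on the opposite strand.

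The largest nuclear rise in complex I was that of Ndufb2, a small accessory subunit, at 10.2, 9.11, 10.2 and 9.93 CPM in knock-out libraries against 7.07 and 7.51 CPM in wild type (0.44 ± 0.11, adjusted p = 0.00489). Ndufb7 (0.40 ± 0.08), Ndufs1, the largest iron-sulphur subunit (0.25 ± 0.05), and Ndufa11 (0.21 ± 0.08) rose as well, though the call of Ndufa11 was lost in 17 of 27 alternatives. Ndufs7, an iron-sulphur subunit at the quinone site, fell (-0.29 ± 0.08), as did Ndufv1, which binds NADH (-0.22 ± 0.05), while Ndufv2, an iron-sulphur subunit beside it (0.05 ± 0.06, adjusted p = 0.48), was not called.

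Complex II, the succinate dehydrogenase of the citric acid cycle, moved least in the CVP knock-out. Sdhc, a membrane anchor, stood at 93.5, 96.9, 94.8 and 100.5 CPM in knock-out libraries against 104.0 and 106.9 CPM in wild type (-0.13 ± 0.05, adjusted p = 0.033). The 2 groups did not overlap, yet the call was lost in 9 of 27 alternatives. Sdhd, the other anchor, gave -0.12 ± 0.05 (adjusted p = 0.0799), the iron-sulphur subunit Sdhb -0.03 ± 0.06 (adjusted p = 0.708) and the flavoprotein Sdha -0.01 ± 0.05 (adjusted p = 0.846).

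In complex III, the fall was led by Uqcrc2, a core protein of the matrix side (chromosome 7, 120635176 to 120659524, plus strand). Its level was 143.4 and 153.4 CPM in clone 2.9 and 142.2 and 154.9 CPM in clone 2.10, against 227.1 and 217.4 CPM in CVP wild type (-0.58 ± 0.05, adjusted p = 2.16e-06). The 4 knock-out libraries lay close together and all were below both wild type libraries. Uqcrc1, its partner core protein, did not pass the test (-0.02 ± 0.05, adjusted p = 0.805).

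Uqcr10, a small membrane subunit, stood at 40.6, 42, 40.9 and 44.9 CPM in knock-out libraries against 62.7 and 55.5 CPM in wild type (-0.49 ± 0.06, adjusted p = 3.47e-05). The Rieske iron-sulphur protein Uqcrfs1 (-0.44 ± 0.05), Uqcrh (-0.44 ± 0.06) and Uqcrb (-0.19 ± 0.07) fell too. Against them, Uqcr11, a small peripheral subunit, rose at 50.8, 48, 49.9 and 49.3 CPM in knock-out libraries against 41.5 and 42.8 CPM in wild type (0.23 ± 0.05, adjusted p = 0.00216), although 38.4% of its transcript has a near-identical copy in Gm16418. Uqcrc2, Uqcr10, Uqcrfs1 and Uqcrh were called in every alternative run. For Uqcrb, a near-identical copy in Gm2962 covers 62.8% of the transcript. About 19.7% of the exon bases of Uqcrc2 overlap Pdzd9 on the opposite strand, and whether reads were counted by strand is not known here.

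Complex IV held the largest nuclear rise. Cox5b, which encodes a zinc-binding subunit of cytochrome c oxidase (chromosome 1, 36691449 to 36693681, plus strand), stood at 54 and 48 CPM in clone 2.9 and at 52.9 and 47.6 CPM in clone 2.10, against 26.3 and 29 CPM in CVP wild type (0.87 ± 0.09, adjusted p = 8.76e-06). Every knock-out library was well above wild type, and the call held in all alternatives run. A stretch covering 45.1% of the Cox5b transcript has a copy of 99.2% identity in Gm11273 on chromosome 13, so part of its reads could be placed on either gene.

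Several small membrane subunits of complex IV fell. Cox7c stood at 39.1, 40.9, 36.4 and 37.6 CPM in knock-out libraries against 59.1 and 51.7 CPM in wild type (-0.52 ± 0.06, adjusted p = 2.93e-05), with no overlap of the groups; 32.9% of its transcript has a near-identical copy in Gm10012. Cox7a2 (-0.50 ± 0.06) and Cox8a (-0.39 ± 0.05) fell alongside it. Cox7a2l, which encodes an assembly factor of the complex III and IV supercomplex, fell as well (-0.42 ± 0.07, adjusted p = 0.000402), while Cox7b rose (0.20 ± 0.05, adjusted p = 0.0059). Cox4i1 was at 211.7 to 225.4 CPM in knock-out libraries and at 251.4 and 246.9 CPM in wild type (-0.18 ± 0.06, adjusted p = 0.0207). The remaining isoform pairs showed no call, at -0.13 ± 0.06 for Cox6a1, -0.12 ± 0.05 for Cox6b1, 0.03 ± 0.34 for Cox6b2 and -0.30 ± 0.47 for Cox7a1.

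In complex V, opposite changes occurred among the 3 genes that encode the same c subunit of the rotor ring. Atp5g1 stood at 44.3, 36.8, 43.6 and 40.1 CPM in knock-out libraries against 29.7 and 27.6 CPM in wild type (0.52 ± 0.08, adjusted p = 0.000271). Atp5g2 stood at 26.6, 30.7, 28.2 and 32.6 CPM in knock-out libraries against 38.2 and 38.4 CPM in wild type (-0.38 ± 0.08, adjusted p = 0.0015). Atp5g3, the most abundant of the 3, gave 0.10 ± 0.06 (adjusted p = 0.185). Neither Atp5g1 nor Atp5g2 overlapped its wild type, and both calls held in all alternatives run. Of the catalytic head, Atp5a1, the alpha subunit, fell slightly (-0.14 ± 0.05, adjusted p = 0.0323) and Atp5b did not pass the test (0.07 ± 0.06, adjusted p = 0.371). The stalk genes Atp5c1 (gamma, -0.20 ± 0.05), Atp5d (delta, -0.21 ± 0.06), Atp5e (epsilon, -0.25 ± 0.06) and Atp5h (subunit d, -0.20 ± 0.06) fell, and the small membrane subunits Atp5mpl (-0.25 ± 0.06) and Atp5md (-0.19 ± 0.07) fell too. A near-identical copy in Gm10250 covers 71.1% of the Atp5h transcript, which also bears on the results for Atp5h below.

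**Figure D2:**
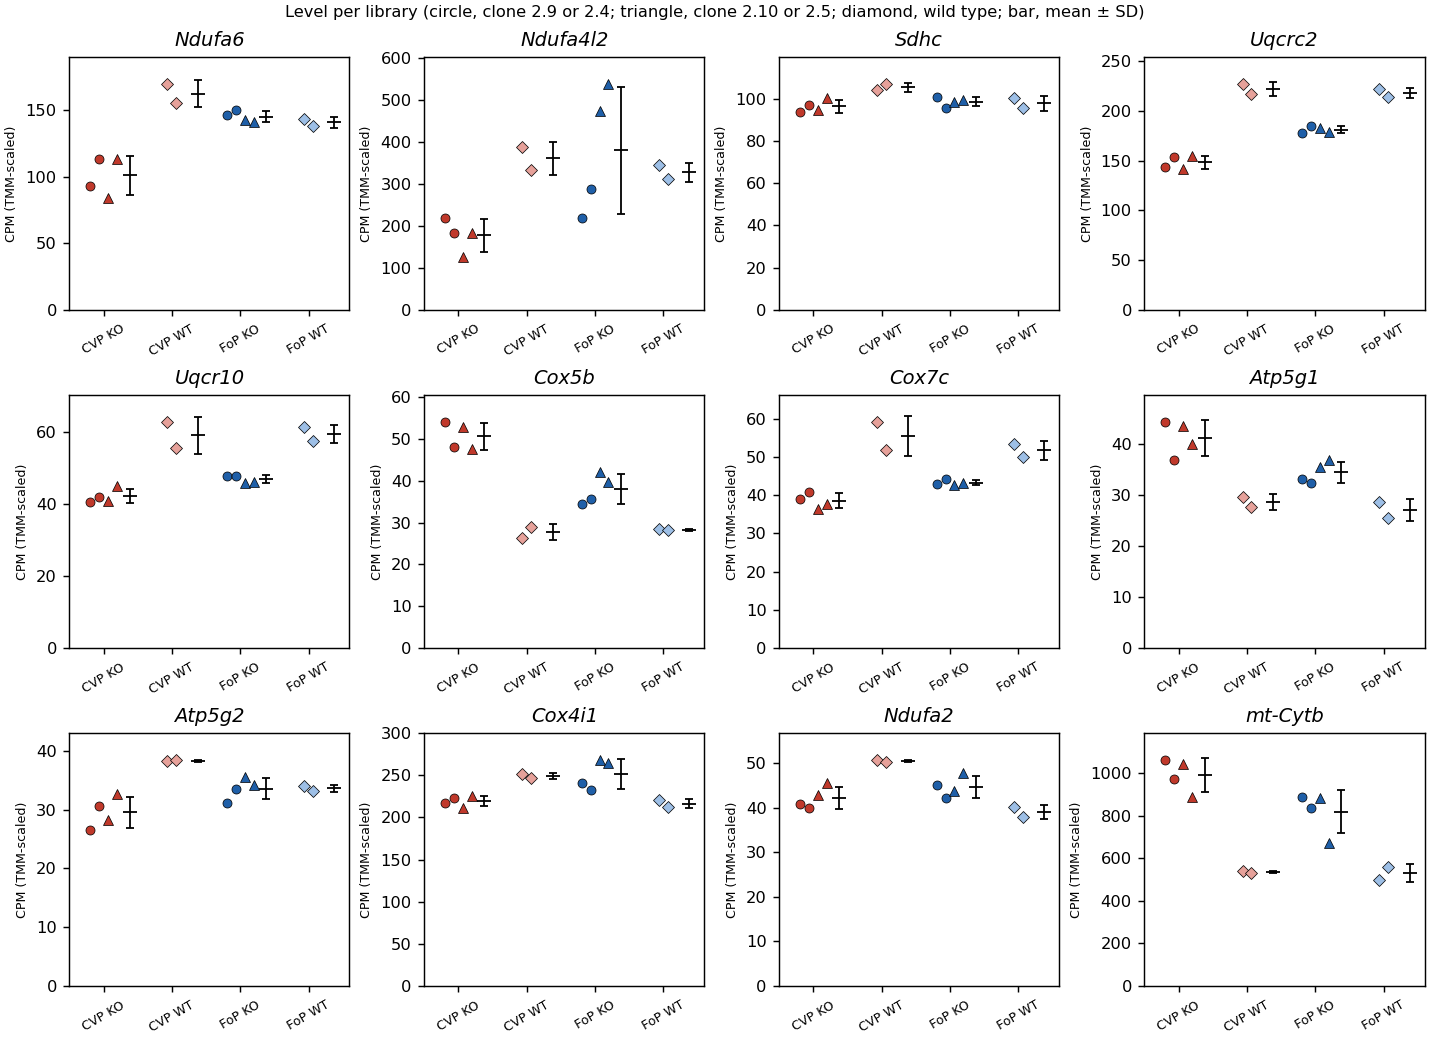
Library-scaled level (CPM, y axes from 0) of 12 members in each library by group (x axes), with mean ± SD beside the points. Circles are clones 2.9 and 2.4, triangles clones 2.10 and 2.5 and diamonds wild type. Uqcrc2, Uqcr10, Cox5b, Cox7c, Atp5g1 and mt-Cytb separate knock-out from wild type in both lines, each in the same direction. Cox4i1 and Ndufa2 also separate them in both lines, with knock-out below wild type in CVP and above it in FoP. Ndufa4l2 separates clone 2.5 at 473.5 and 536.7 CPM from clone 2.4 at 219.1 and 287.2 CPM.

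The CVP counts rest on 2 wild type libraries of 1 culture. Without the first wild type library 17 nuclear members fell and 6 rose, and without the second 18 fell and 7 rose. With duplicates summed per culture, which leaves 2 residual degrees of freedom, 13 nuclear members fell, 2 rose and 1 mitochondrial member rose. Over all 17076 genes these fits called 2693 lower and 2545 higher, 3108 lower and 2952 higher, and 1814 lower and 1606 higher, respectively.

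In FoP knock-out organoids, nuclear members moved in both directions and by less. Of the 81 tested, 10 rose and 8 fell, with a median of 0.03 beside 0.01 over all genes. Called genes made up 28.8% of all genes in this comparison (13.5% higher, 15.3% lower) and 22.2% of nuclear members. Complex I had 4 higher and 1 lower of 39, complex II 1 lower of 4, complex III 1 higher and 3 lower of 8, complex IV 3 higher and 2 lower of 13, and complex V 2 higher and 1 lower of 17. Complex III was the only complex with a nuclear median below 0 (-0.09).

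In complex I of the FoP line, Ndufa1, an accessory subunit encoded on the X chromosome, rose at 22.8 and 22 CPM in clone 2.4 and 27.1 and 24.9 CPM in clone 2.5, against 16.4 and 19.1 CPM in FoP wild type (0.45 ± 0.10, adjusted p = 0.00398). Ndufa3 (0.34 ± 0.08), Ndufb7 (0.27 ± 0.08) and Ndufa2 (0.20 ± 0.07) rose as well. Ndufv1 was the 1 called fall, at 67.4, 69.5, 68 and 63.4 CPM in knock-out libraries against 76.8 and 76 CPM in wild type (-0.19 ± 0.05, adjusted p = 0.00901), again without overlap. In complex II, Sdhd stood at 83.7, 87, 87.3 and 87.9 CPM in knock-out libraries against 99.1 and 94.9 CPM in wild type (-0.17 ± 0.05, adjusted p = 0.0271; lost in 7 of 27 alternatives), while Sdha (0.05 ± 0.05), Sdhc (0.01 ± 0.05) and Sdhb (0.00 ± 0.06) were not called.

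In complex III of the FoP line, Uqcr10 fell at 47.8, 47.8, 45.9 and 46.1 CPM in knock-out libraries against 61.3 and 57.6 CPM in wild type (-0.34 ± 0.06, adjusted p = 0.00112). Uqcrc2 stood at 177.9, 184.8, 183.5 and 178.5 CPM in knock-out libraries against 221.8 and 214.3 CPM in wild type (-0.27 ± 0.05, adjusted p = 0.00131). Uqcrfs1 fell by 0.18 on the log2 scale, and Uqcr11 rose at 45.8, 44, 47.1 and 48.1 CPM in knock-out libraries against 39.9 and 39.1 CPM in wild type (0.23 ± 0.05, adjusted p = 0.0046). For Uqcr10, Uqcrc2 and Uqcr11, the knock-out libraries did not overlap wild type.

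In complex IV, Cox5b was at 34.5 and 35.6 CPM in clone 2.4 and at 42.2 and 39.7 CPM in clone 2.5, against 28.4 and 28.1 CPM in FoP wild type (0.43 ± 0.09, adjusted p = 0.00265). Cox7c was at 42.9, 44.3, 42.7 and 43.2 CPM in knock-out libraries against 53.4 and 50 CPM in wild type (-0.26 ± 0.06, adjusted p = 0.00846). Cox7b (0.26 ± 0.05) and Cox4i1 (0.22 ± 0.06) rose and Cox7a2 fell (-0.24 ± 0.06). In complex V, Atp5g1 was at 33.2, 32.4, 35.6 and 36.8 CPM in knock-out libraries against 28.6 and 25.6 CPM in wild type (0.35 ± 0.08, adjusted p = 0.00805), and Atp5c1 at 163.8, 160.7, 181.3 and 176.2 CPM against 193.0 and 193.9 CPM in wild type (-0.18 ± 0.05, adjusted p = 0.0187). Knock-out and wild type did not overlap for either gene. Atp5j2, which encodes subunit f of the membrane part, rose too (0.18 ± 0.05).

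The FoP counts rest on 2 wild type libraries as well. Without the first FoP wild type library 6 nuclear members rose and 3 fell, without the second 3 rose and 3 fell, and with duplicates summed per culture none of the 20 called members was called. Without clone 2.4, 16 rose and 6 fell, and without clone 2.5, 5 rose and 9 fell. Of all 17076 genes, 1136 were higher and 1583 lower without the first wild type library, and 1206 higher and 1462 lower without the second. With duplicates summed, 372 of all genes were called. Without clone 2.4, 2211 of all genes were higher and 2405 lower, and without clone 2.5, 2011 were higher and 2335 lower.

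Across the lines, 5 nuclear members rose in both knock-outs (Atp5g1, Cox5b, Cox7b, Ndufb7 and Uqcr11) and 7 fell in both (Atp5c1, Cox7a2, Cox7c, Ndufv1, Uqcr10, Uqcrc2 and Uqcrfs1). These are 6.17% and 8.64% of the nuclear members tested, beside 9.2% and 10.1% of all genes, so neither share stood above the background. Among mitochondrial members, mt-Cytb and mt-Nd4 rose in both. Cox4i1 and Ndufa2 were lower in the CVP knock-out and higher in the FoP knock-out, and no member was called the other way round, beside 0.574% and 0.568% of all genes. The FoP call of Ndufa2 was lost in 12 of 27 alternatives. The sign of the log2 fold change was the same in both lines for 43 of 81 nuclear members (53.1%) and for 11 of 11 mitochondrial ones, beside 70.2% of all genes. These 11 include mt-Nd3, mt-Co2, mt-Co3 and mt-Atp6, which held at most 80 counts in a library, so their signs carry little weight. The CVP and FoP comparisons use different wild type cultures.

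The knock-out effect differed between the lines for 18 nuclear members. The effect was more positive in FoP than in CVP for 17 of them and less positive for 1, where 7.28% of all genes were called in the first direction and 8.49% in the second (15.8% in either). The median difference over nuclear members was 0.11, beside -0.02 over all genes. By complex, the 17 comprise 5 of 39 in complex I, 3 of 8 in complex III, 4 of 13 in complex IV and 5 of 17 in complex V, and none of 4 in complex II.

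Among these 18 members, Ndufa6 differed most, with a log2 fold change of 0.04 in FoP and -0.69 in CVP (difference 0.73 ± 0.15, adjusted p = 0.00768). Its FoP levels were 141.1 to 150.4 CPM in knock-out libraries and 143.8 and 137.8 CPM in wild type, which overlap. Uqcrh followed with 0.18 in FoP and -0.44 in CVP (0.62 ± 0.09, adjusted p = 0.00166), then Cox7a2l with 0.15 and -0.42 (0.56 ± 0.10, adjusted p = 0.00406), Ndufb11 with 0.11 and -0.37 (0.48 ± 0.09, adjusted p = 0.0048) and Ndufa2 with 0.20 and -0.26 (0.45 ± 0.09, adjusted p = 0.00688). Cox5b was the 1 member with a lower effect in FoP, at 0.43 in FoP and 0.87 in CVP (-0.45 ± 0.12, adjusted p = 0.0256). Uqcrc2 fell in both lines but by less in FoP, at -0.27 in FoP and -0.58 in CVP (0.31 ± 0.07, adjusted p = 0.0098). The difference for Ndufa4l2 was large but did not pass the test (1.24 ± 0.50, adjusted p = 0.136).

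**Figure D3:**
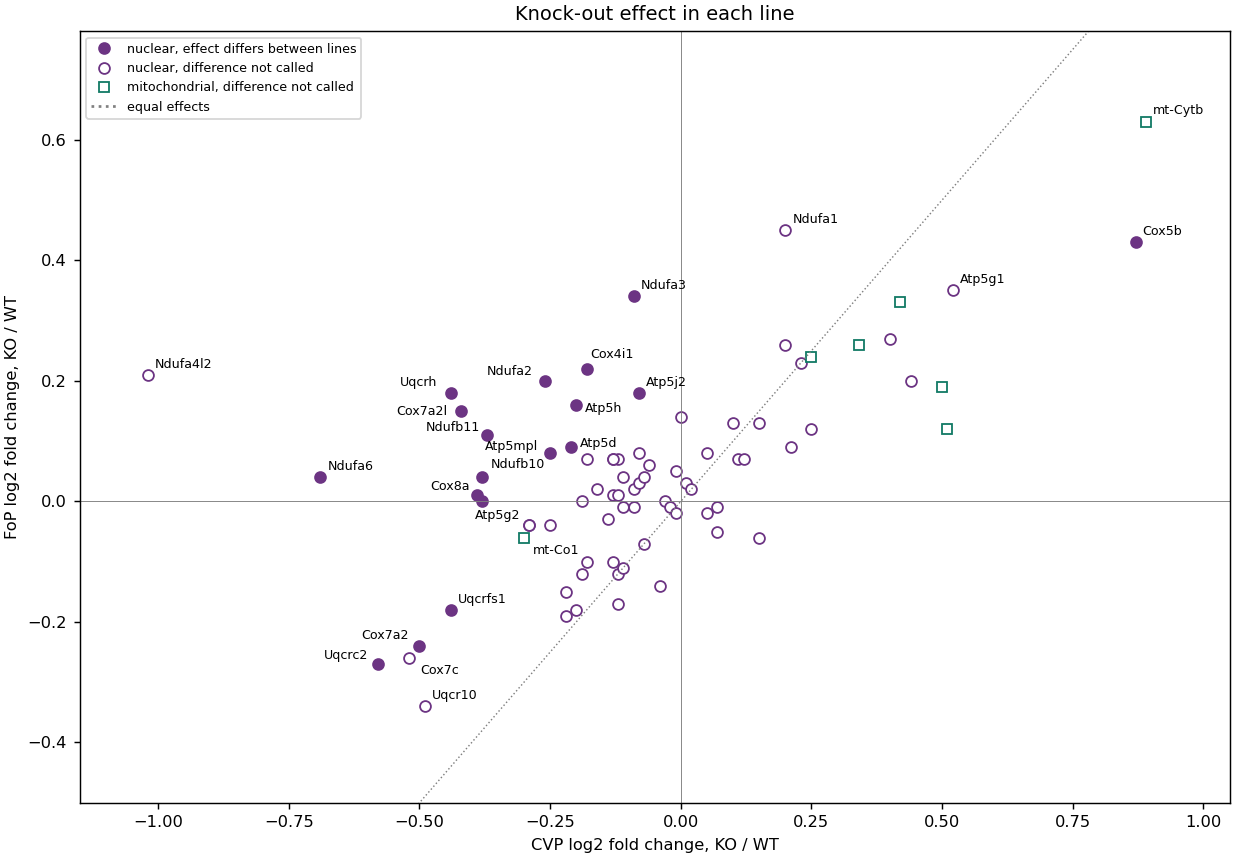
Log2 fold change, knock-out over wild type, in FoP (y axis) against CVP (x axis) for members whose mean log2 CPM was 2 or more. Filled points are the 18 nuclear members whose effect differed between the lines at an adjusted p of 0.05; 17 lie above the dotted line of equal effects and Cox5b lies below it.

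No mitochondrial member was called different between the lines by edgeR's quasi-likelihood test (0 of 11 called; at an unadjusted p of 0.05 1 was lower in FoP, and DESeq2 called 0). With the 6 cultures as groups, or without clone 2.10, 2 of them were called lower in FoP. The count of nuclear differences was 10 with limma voom and culture as a block, 9 without the first CVP wild type library, 8 without the second FoP wild type library and 0 with duplicates summed per culture. Over all genes these fits called 1457, 1103, 1240 and 0.

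The wild type cultures themselves differed at a few members. FoP wild type was lower than CVP wild type for 5 nuclear members and higher for none, where 2.91% of all genes were lower and 3.77% higher (6.68% in either direction). Unadjusted, 17 were lower and 0 higher at p of 0.05, and DESeq2 called 11 lower and 0 higher. Ndufa2 stood at 40.2 and 37.9 CPM in FoP wild type against 50.7 and 50.3 CPM in CVP wild type (-0.37 ± 0.07, adjusted p = 0.0135). Uqcrh (-0.27 ± 0.07), Atp5h (-0.25 ± 0.07), Ndufb10 (-0.24 ± 0.06) and Cox8a (-0.22 ± 0.06) were the others. The 5 are all among the members whose knock-out effect differed between the lines, a comparison that uses the same wild type libraries. None of the 5 was called without any 1 of the 4 wild type libraries or with duplicates summed, and the replicate block left 1.

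Between the knock-out groups, FoP was higher than CVP for 19 nuclear members and lower for 3, where 12.1% of all genes were higher and 12.3% lower (24.4% in either direction). Ndufa4l2 gave the largest difference, at 219.1 to 536.7 CPM in FoP knock-out and 125.2 to 218.7 CPM in CVP knock-out (1.10 ± 0.29, adjusted p = 0.026). Ndufa6 followed (0.52 ± 0.09) and the lower ones were Cox5b (-0.41 ± 0.07), Atp5g1 (-0.26 ± 0.07) and Uqcrq (-0.24 ± 0.06). In complex III, 5 of 8 were higher in FoP knock-out, Uqcrc1 among them (0.11 ± 0.04, adjusted p = 0.0449). Of the mitochondrial members, mt-Co1 was higher in FoP knock-out (0.41 ± 0.09) and mt-Nd2 (-0.35 ± 0.08), mt-Nd1 (-0.30 ± 0.10) and mt-Cytb (-0.27 ± 0.09) were lower. The call was lost in 17 of 26 alternatives for Uqcrc1, in 16 for mt-Nd1, in 14 for mt-Cytb and in 10 for Ndufa4l2. With duplicates summed per culture none of these 26 calls remained, and 11 to 15 remained without any 1 of the 4 clones. These libraries are the ones used in the comparisons within each line.

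Between clone 2.10 and clone 2.9 in the CVP line, mt-Nd1 (-0.37 ± 0.08, adjusted p = 0.019) and mt-Nd2 (-0.32 ± 0.07, adjusted p = 0.0197) were the only members called, beside 5.42% of all genes. All 11 mitochondrial members tested were below 0 in this comparison, among them the 7 with 1000 counts or more in every library (median -0.18). Of the 81 nuclear members, 50 were above 0 (median 0.03, all genes 0.00). Between clone 2.5 and clone 2.4 in the FoP line, 2 nuclear members were higher and 2 lower, beside 7.26% of all genes called (3.53% higher, 3.72% lower). Of the 81 nuclear members, 67 were above 0 with a median of 0.11, beside 8476 of 17076 genes above 0 and a median of -0.00 over all genes. Ndufa4l2 was higher in clone 2.5 (1.00 ± 0.21, adjusted p = 0.0365), as was Atp5o, the stalk subunit that confers oligomycin sensitivity (0.27 ± 0.06). About 35.6% of the exon bases of Atp5o overlap genes on the opposite strand. Cox6b2 was lower in clone 2.5, at 3.1 and 1.58 CPM against 4.88 and 4.52 CPM in clone 2.4 (adjusted p = 0.0277), and Ndufa4 was lower by a small amount (-0.20 ± 0.06).

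Each clone was set against the wild type culture of its line in the same fit of 6 cultures, with the same limit. Against CVP wild type, 7 nuclear members rose and 32 fell in clone 2.9, where 23.4% of all genes were higher and 23.6% lower (47.1% called), and 11 rose and 27 fell in clone 2.10, where 25.2% were higher and 24.4% lower (49.6% called). Against FoP wild type, 6 rose and 12 fell in clone 2.4, where 15.1% were higher and 17.3% lower (32.4% called), and 19 rose and 8 fell in clone 2.5, where 16.3% were higher and 18.1% lower (34.4% called). Several leading genes had the same direction in all 4 clones. Uqcrc2 gave -0.58 in clones 2.9 and 2.10 and -0.27 in clones 2.4 and 2.5, and mt-Cytb gave 0.92 in clone 2.9, 0.85 in clone 2.10, 0.70 in clone 2.4 and 0.55 in clone 2.5, each called. Cox5b gave 0.88 in clone 2.9, 0.86 in clone 2.10, 0.31 in clone 2.4 and 0.54 in clone 2.5. Ndufa4l2 parted, with -0.84 in clone 2.9, -1.23 in clone 2.10, -0.37 in clone 2.4 (adjusted p = 0.235) and 0.63 in clone 2.5 (adjusted p = 0.0564).

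The mitochondrial genome was read unevenly. Of its 13 protein genes, 7 held 9132 counts or more in every library, while mt-Co2, mt-Atp8, mt-Atp6, mt-Co3, mt-Nd3 and mt-Nd4l held at most 80. Except for mt-Atp8, these genes have near-identical nuclear copies on chromosome 1 that cover 99.0% to 99.9% of the transcript, and the copy of mt-Co3 in Gm28437 is identical over 783 bases. The first 60 bases of mt-Co3 (chrM:8607-8666, plus strand, GRCm38) and of the copy (chr1:24613912-24613971, minus strand, GRCm38), read from the annotated transcripts, are given to show that a read inside this stretch matches both places.
mt-Co3: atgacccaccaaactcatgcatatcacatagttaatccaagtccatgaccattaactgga
Gm28437: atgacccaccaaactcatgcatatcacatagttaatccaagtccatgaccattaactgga

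Copies of mt-Co1 and mt-Nd4 cover 31.3% and 63.6% of those genes, and mt-Nd1, mt-Nd2, mt-Nd5, mt-Nd6 and mt-Cytb have no such copy in the annotation. How reads that match several places were counted is not known here, so the low counts of mt-Co2, mt-Atp6, mt-Co3, mt-Nd3 and mt-Nd4l are no measure of their RNA, and changes of mt-Co1 and mt-Nd4 are those of the part counted. The low counts of mt-Atp8 are not read as a measure of its RNA either. It shares 21.1% of its bases with mt-Atp6, and copies were sought only among annotated transcripts.

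mt-Cytb rose most among the measured mitochondrial genes in both lines. It stood at 1061 and 972.1 CPM in clone 2.9 and at 1044 and 886.5 CPM in clone 2.10, against 539.6 and 532.5 CPM in CVP wild type (0.89 ± 0.11, adjusted p = 4.5e-05). In the FoP line it stood at 888.9 and 834.6 CPM in clone 2.4 and at 885.1 and 670.1 CPM in clone 2.5, against 500.0 and 560.1 CPM in FoP wild type (0.63 ± 0.11, adjusted p = 0.00112). No knock-out library overlapped wild type in either line.

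The complex I genes mt-Nd1 (0.51 ± 0.12), mt-Nd2 (0.50 ± 0.10), mt-Nd4 (0.42 ± 0.12) and mt-Nd5 (0.34 ± 0.10) rose in the CVP knock-out, and mt-Nd6, the 1 protein gene on the minus strand, gave 0.25 ± 0.11 (adjusted p = 0.0754). In the FoP knock-out, mt-Nd4 rose (0.33 ± 0.12, adjusted p = 0.0494), and mt-Nd5 (0.26 ± 0.10, adjusted p = 0.0664), mt-Nd6 (0.24 ± 0.11, adjusted p = 0.119), mt-Nd2 (0.19 ± 0.10, adjusted p = 0.199) and mt-Nd1 (0.12 ± 0.12, adjusted p = 0.489) did not pass. mt-Co1 went the other way in the CVP line, at 2721, 2881, 2300 and 2472 CPM in knock-out libraries against 3389 and 2991 CPM in wild type (-0.30 ± 0.11, adjusted p = 0.0451). That call was lost in 15 of 27 alternatives, and the FoP value was -0.06 ± 0.11 (adjusted p = 0.745). The FoP rise of mt-Nd4 was lost in 16 of 27.

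The 2 ribosomal RNAs at the start of the mitochondrial genome, which are no members, fell in the CVP knock-out, where most measured messenger RNAs rose. In a poly(A) selected library, they are read only so far as their RNA was retained. mt-Rnr2 averaged 259.0 ± 43.9 CPM in CVP knock-out and 528.8 ± 114.4 CPM in CVP wild type (SD, n = 4 and n = 2; -1.03 ± 0.19 SE, adjusted p = 0.0015 by edgeR), and 365.5 ± 59.9 CPM in FoP knock-out and 563.1 ± 38.6 CPM in FoP wild type (-0.62 ± 0.19, adjusted p = 0.0345 by edgeR). mt-Rnr1 gave -0.79 ± 0.19 in CVP (adjusted p = 0.00655) and -0.39 ± 0.19 in FoP (adjusted p = 0.153). Of the 7 minus-strand transfer RNAs tested, the neighbours mt-Ta, mt-Tn, mt-Tc and mt-Ty fell in the CVP line (-1.13 to -1.40) and mt-Tp rose in both lines (0.66 in CVP, 0.67 in FoP), each with 42 to 808 counts per library. In the FoP line, mt-Ta fell as well (-0.67 ± 0.21, adjusted p = 0.0257), as did mt-Tl1 on the plus strand (-0.67 ± 0.23, adjusted p = 0.0457; in CVP -0.54 ± 0.23, adjusted p = 0.0694).

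**Figure D4:**
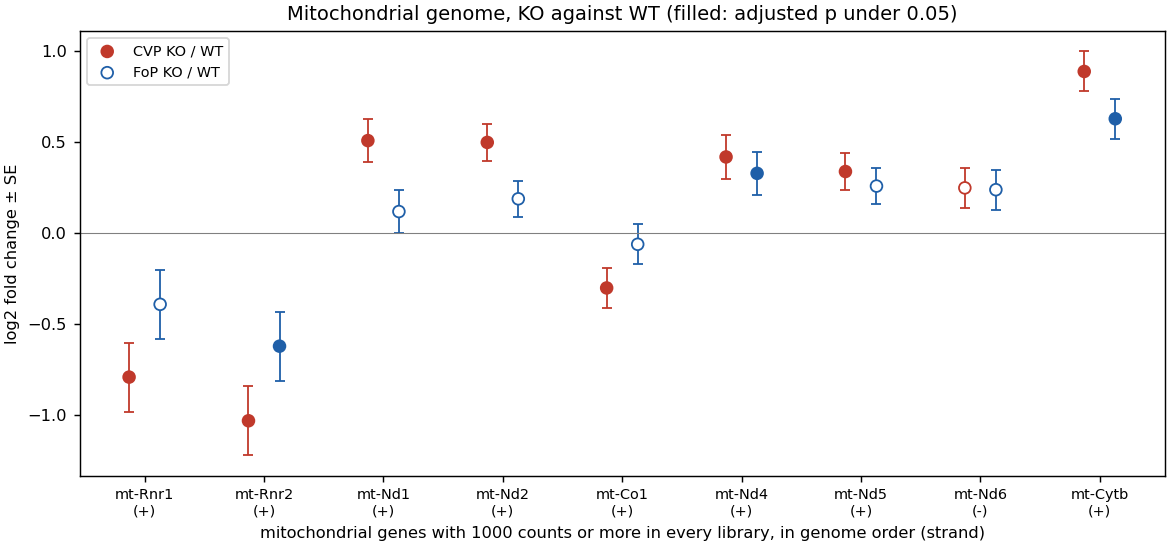
Log2 fold change ± SE (y axis), knock-out over wild type, of the 9 mitochondrial genes with 1000 counts or more in every library, in genome order with their strand (x axis), in the CVP line (red) and the FoP line (blue). Filled points passed an adjusted p of 0.05; values run from -1.03 for mt-Rnr2 to 0.89 for mt-Cytb in CVP and from -0.62 to 0.63 for the same genes in FoP.

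The nuclear and mitochondrial members moved unlike each other within the CVP line. The summed level of the nuclear members without Ndufa4l2 was 6566 ± 76.5 CPM in CVP knock-out and 7198 ± 38.1 CPM in CVP wild type (SD, n = 4 and n = 2), and 6940 ± 240.7 CPM in FoP knock-out and 6873 ± 50.5 CPM in FoP wild type. In the CVP line no knock-out library reached wild type, the highest being 6643 CPM against 7171 CPM for the lower wild type library, while in the FoP line clone 2.4 lay below wild type and clone 2.5 above it. The summed level of the mitochondrial members without mt-Co1 was 3404 ± 328.3 CPM in CVP knock-out and 2332 ± 107.0 CPM in CVP wild type, and 2970 ± 256.6 CPM in FoP knock-out and 2381 ± 59.3 CPM in FoP wild type, with every knock-out library above both wild type libraries of its line. With mt-Co1 included, knock-out and wild type overlapped in both lines. The sum was then 5998 ± 525.7 CPM (5493 to 6524) in CVP knock-out and 5522 ± 388.7 CPM (5247 to 5797) in CVP wild type. In the FoP line it was 6409 ± 647.8 CPM (5453 to 6857) in knock-out and 5964 ± 121.9 CPM (5878 to 6051) in wild type. mt-Co1 alone stood at 2300 to 2881 CPM in CVP knock-out and at 2991 and 3389 CPM in CVP wild type.

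Complex III showed the contrast within 1 enzyme. Its nuclear members summed to 742.3 ± 20.3 CPM in CVP knock-out and 916.6 ± 17.9 CPM in CVP wild type. In the FoP line they summed to 841.2 ± 17 CPM in knock-out and 879.4 ± 17.5 CPM in wild type. The only mitochondrial gene of complex III, mt-Cytb, rose in both lines. The ratio of mt-Cytb to mt-Co1 counts, which does not depend on library scaling, was 0.385 ± 0.0507 in CVP knock-out and 0.169 ± 0.0133 in CVP wild type, and 0.238 ± 0.0122 in FoP knock-out and 0.148 ± 0.00928 in FoP wild type. The lowest knock-out ratio exceeded the highest wild type ratio in both lines (0.337 against 0.178 in CVP, 0.228 against 0.154 in FoP). This pair joins the measured mitochondrial member that rose most with the 1 that lay below 0 in both lines. The separation of the ratio therefore follows from that choice and is no separate result. An exact permutation test of 4 against 2 libraries cannot go below a two-sided p of 0.0667, so these sums and ratios are given without a test.

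**Figure D5:**
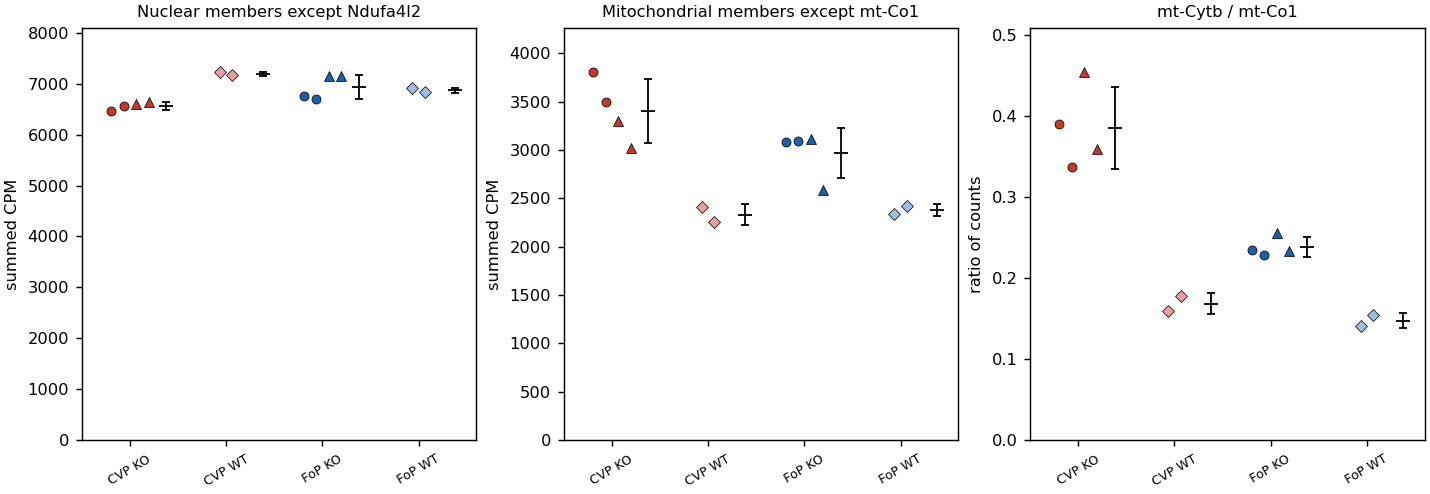
Summed CPM of nuclear members without Ndufa4l2 (left), summed CPM of mitochondrial members without mt-Co1 (middle) and the ratio of mt-Cytb to mt-Co1 counts (right), per library by group (x axes), with mean ± SD. The y axes start at 0; the ratio is 0.337 to 0.454 in CVP knock-out and 0.159 to 0.178 in CVP wild type.

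Genes that serve these complexes without being members were counted from lists, and the genes named are mainly the called ones of largest change in each direction among those whose mean log2 CPM was 2 or more. The shares of all genes beside these counts are 23.5% higher and 22.9% lower in the CVP comparison, and 13.5% higher and 15.3% lower in the FoP comparison. Of 43 assembly factors tested, 10 rose and 4 fell in the CVP knock-out (median 0.07), and 6 rose and 4 fell in the FoP knock-out (median -0.00). Lyrm7, which matures the Rieske protein of complex III, rose in both lines (0.84 ± 0.17 in CVP, 0.79 ± 0.17 in FoP), and Surf1, a complex IV assembly factor, fell most in CVP (-0.58 ± 0.09) and Cox18 in FoP (-0.35 ± 0.10). Of 16 genes for ubiquinone, cytochrome c and subunits outside the symbol rule, 5 rose and 4 fell in CVP (median 0.09), and 1 rose and 5 fell in FoP (median -0.06). Coq8a, a kinase-like protein of ubiquinone synthesis, averaged 36.2 ± 9.56 CPM in CVP knock-out and 119.7 ± 1.27 CPM in CVP wild type (-1.73 ± 0.20), and gave -0.44 ± 0.20 in FoP (adjusted p = 0.132). The ubiquinone synthesis genes Coq4 (0.50 ± 0.14 in CVP), Coq7 (0.44 ± 0.13 in FoP) and Coq3 (-0.31 ± 0.08 in FoP) were the other called genes of largest change above that level. Cyc1, a complex III subunit outside the symbol rule, fell in both lines (-0.15 ± 0.05 in CVP, -0.19 ± 0.05 in FoP). Below it, Pdss1, which makes the side chain of ubiquinone, rose in CVP (1.09 ± 0.23, adjusted p = 0.00181).

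Of 22 genes for mitochondrial RNA processing and translation, 10 rose and 1 fell in CVP (median 0.18), and 1 rose and 1 fell in FoP (median -0.06). Lrpprc, which stabilises mitochondrial messenger RNAs, averaged 59.3 ± 2.31 CPM in CVP knock-out and 39.6 ± 2.32 CPM in CVP wild type (0.58 ± 0.07, adjusted p = 4.42e-05), and 54.9 ± 4.5 CPM in FoP knock-out and 39.7 ± 1.33 CPM in FoP wild type (0.47 ± 0.07, adjusted p = 0.000532). Mtpap, the mitochondrial poly(A) polymerase, fell in both (-0.30 ± 0.06 in CVP, -0.19 ± 0.06 in FoP). Of 16 genes for mitochondrial DNA upkeep and transcription, 5 rose and 1 fell in CVP and 0 rose and 2 fell in FoP, with a rise of Tefm, an elongation factor, in CVP (0.59 ± 0.11) and a fall of the nuclease Mgme1 in CVP (-0.78 ± 0.12) and FoP (-0.59 ± 0.12). At a lower level, Mterf2, of the transcription termination factor family, rose in CVP (1.33 ± 0.26, adjusted p = 0.00114). Tfam, which packages the mitochondrial genome, did not pass the test in either line (0.02 in CVP, adjusted p = 0.799; 0.07 in FoP, adjusted p = 0.427).

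Of 12 regulators of mitochondrial biogenesis, 2 rose and 5 fell in CVP and 1 rose and 7 fell in FoP. Gabpb1, a subunit of the ETS factor named nuclear respiratory factor 2, averaged 36.0 ± 2.16 CPM in CVP knock-out and 53.3 ± 1.49 CPM in CVP wild type (-0.57 ± 0.06), and fell in FoP as well (-0.43 ± 0.06). Nrf1, whose motif is shown above, gave -0.35 in CVP (adjusted p = 0.000319) and -0.18 in FoP (adjusted p = 0.0296), and Myc rose in CVP (0.60 ± 0.11) and fell in FoP (-0.39 ± 0.10). Among the regulators below that level, the coactivator Ppargc1a rose (0.73 ± 0.26, adjusted p = 0.035) and its relative Ppargc1b fell (-0.66 ± 0.18, adjusted p = 0.0104) in CVP, and the nuclear receptor Ppara rose in FoP (1.26 ± 0.38, adjusted p = 0.0242). Of 18 citric acid cycle and pyruvate dehydrogenase genes, 7 rose and 6 fell in CVP and 1 rose and 5 fell in FoP, and the citrate synthase gene Cs fell in both (-0.55 ± 0.05 in CVP, -0.39 ± 0.05 in FoP). Pdhx, which anchors a subunit of pyruvate dehydrogenase, rose most in CVP (0.56 ± 0.12) and Idh3g, of isocitrate dehydrogenase, in FoP (0.31 ± 0.07). Of 11 carriers and channels, 4 rose and 2 fell in CVP and 2 rose and 1 fell in FoP. The phosphate carrier Slc25a3 rose most in CVP (0.94 ± 0.09, adjusted p = 4.37e-06) and gave 0.02 ± 0.08 in FoP (adjusted p = 0.872). Ucp2, an uncoupling protein family member, rose most in FoP (0.53 ± 0.11), and the outer membrane channel Vdac1 fell in both (-0.32 ± 0.06 in CVP, -0.22 ± 0.06 in FoP).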

How the data were processed

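RNA from 12 organoid libraries (6 cultures in duplicate) was extracted with a Qiagen kit and made into TruSeq stranded mRNA libraries, per the labels' protocols. The deposited values are raw counts per gene symbol; STAR, featureCounts and hg38 are named per the submitters' processing notes, without versions, although the symbols are those of mouse genes, and neither a strand setting nor a rule for reads with several matches is named. Genes were filtered with filterByExpr over the 4 groups, scaled by TMM and tested with edgeR 4.0.16 (robust quasi-likelihood test, 4 groups in 1 fit), with Benjamini-Hochberg adjustment over 17076 genes and a threshold of 0.05. Comparisons of single clones came from a separate fit with the 6 cultures as groups. Library totals were 59.3 to 73.6 M counts. Levels are CPM after TMM, and standard errors of log2 fold changes are approximate, derived from the F statistic. Near-identical copies (75 bases or more at 98% identity or more) were sought among GENCODE M21 transcripts with blastn 2.17.0, and 96.1% of symbols matched that annotation. Of the 88 nuclear members, 18 held such a copy, and in 12 copies covered 30% or more of the transcript. In 12 members, 10% or more of the exon bases overlapped another gene. These limits are not repeated for every gene named. The procedure was run on simulated data with independent counts in every library and no culture or clone effect. The error rate with duplicates of a culture was therefore not tested. Named members were the called member of largest change per complex and direction whose mean log2 CPM was 2 or more, with all mitochondrial, Sdh and complex IV isoform genes; members and gene lists were chosen with earlier results of these data known. Alternatives used DESeq2 1.42.0 and limma 3.58.1, other filters and designs, and each library or clone left out.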

Additional observations from a re-analysis of the deposited data

Results flagged for a closer look

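The knock-out effect, FoP minus CVP, differed by edgeR's quasi-likelihood interaction test for 18 nuclear members. The difference was 0.73 on the log2 scale for Ndufa6, 0.62 for Uqcrh, 0.56 for Cox7a2l, 0.48 for Ndufb11, 0.45 for Ndufa2, 0.43 for Ndufa3 and 0.42 for Ndufb10. It was 0.40 for Cox4i1 and for Cox8a, 0.38 for Atp5g2, 0.37 for Atp5h, 0.33 for Atp5mpl, 0.31 for Uqcrc2 and for Atp5d, and 0.26 for Uqcrfs1, Cox7a2 and Atp5j2. For Cox5b it was -0.45. Of these 18 calls, 8 held in all alternatives except the sum of duplicates per culture, under which none held.

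Among 96 sets of 4 knock-out libraries (48 members in 2 lines), 1 held a library that stood apart from its group by Dixon's test. The nominal rate of 1 in 20, or 4.8 sets, assumes 4 independent libraries of 1 kind. Each set here is 2 clones in duplicate, so the count cannot be set against that rate. Ndufb7 stood at 38.6 CPM in the first duplicate of clone 2.10, while the other 3 CVP knock-out libraries held 32.6 to 33.6 CPM.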

How the results depend on the processing

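No call of a member changed sign under any of the alternatives run. In the CVP comparison, 15 of 44 called members were called in every alternative, and 22 in all but the sum of duplicates per culture. In the FoP comparison these counts were 0 and 5 of 20, and between knock-out groups 0 and 6 of 26. With duplicates summed, called nuclear members numbered 15 in CVP and 0 in FoP, in the difference between lines, between wild types and between knock-outs, and mitochondrial ones 1 in CVP and 0 in FoP and between knock-outs. Over all 17076 genes, summing took the calls from 7929 to 3420 in CVP and from 4921 to 372 in FoP. They went from 2692 to 0 for the difference, from 1140 to 0 between wild types and from 4168 to 22 between knock-outs. With limma voom the nuclear counts were 10 for the difference, 1 between wild types and 13 between knock-outs, and the mitochondrial ones 1 in FoP and 2 between knock-outs. FoP mitochondrial calls numbered 1 with no filter, with 1 line per fit and without clone 2.9, 2.10 or 2.4, and 4 with 6 cultures as groups or without clone 2.5. Mitochondrial differences between lines numbered 2 with 6 cultures as groups and without clone 2.10. Between wild types, nuclear calls numbered 8 with no filter and with 1 CPM in 4 libraries, 11 with DESeq2, 13 with 6 cultures as groups, 9 without clone 2.4 and 10 without clone 2.5. Between knock-outs, nuclear calls numbered 14 without clone 2.9 or 2.10 and 12 without clone 2.5, and mitochondrial calls 2 with no filter, 1 without clone 2.9, 2 without clone 2.10, 0 without clone 2.4 and 2 without clone 2.5. The nuclear median was -0.09 in CVP without clone 2.9, -0.13 without clone 2.10, and 0.08 in FoP without clone 2.4. Leaving out 1 library gave 23 to 38 nuclear and 2 to 7 mitochondrial calls in CVP, 6 to 21 and 1 to 4 in FoP, 8 to 19 nuclear differences, 0 to 6 nuclear calls between wild types, and 15 to 20 nuclear and 2 to 4 mitochondrial calls between knock-outs. The duplicate number as a replicate block gave 35 nuclear calls in CVP, 17 in FoP and 1 between wild types. Deviations of same-numbered duplicates correlated at -0.12 to 0.29 over 15 pairs of cultures, 2 of them over 0.1. These values show no pairing across all cultures, and whether some cultures were paired was not tested. The cause of these changes was not tested, except that the sum of duplicates leaves 2 residual degrees of freedom. At these depths, 9 members were too low to test.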
